A study of Mus musculus with 18 samples.

Results

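MHC class I and immunoproteasome transcripts were followed in 18 mouse RNA-seq libraries through 10 genes, chosen by symbol in the EO771 table and by Ensembl identifier in the endothelial table. They are H2-K1, H2-D1, B2m, Tap1, Tap2, Tapbp, Psmb8, Psmb9, Psmb10 and Nlrc5. All 10 had a row in both tables, out of 55401 rows in the endothelial table and 22612 in the EO771 table. The libraries fell into 6 groups of 3. BEC normal came from the mammary fat pad and BEC tumour from primary EO771 tumours, both holding blood vessel endothelial cells (BECs). HEC normal came from normal inguinal lymph nodes and HEC tumour from what the labels call lymph node metastases, both holding high endothelial cells (HECs), the cells of the venules through which lymphocytes enter nodes. The mice were wild-type female C57BL/6, obtained at 5 to 6 weeks of age, and the cells were sorted as CD45− CD31high, with PNAd+ cells taken as HECs and PNAd− cells as BECs. HEC and BEC differ in tissue of origin as well as in cell type, and these cannot be told apart. EO771 vehicle and EO771 12-HETE were cultures of EO771, a single mouse mammary carcinoma line of C57BL/6 origin, kept for 48 h with either the vehicle (saline with 2% DMSO) or 12-HETE at 100 nM, the lipid that ALOX12 makes from arachidonic acid. The study describes its RNA-seq of both materials as independent experiments. The labels do not tie libraries to mice or cultures, so p-values measure the spread between these libraries.

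MHC class I molecules display peptides from inside the cell to CD8+ T cells. Each is a heavy chain, in C57BL/6 mice the product of H2-K1 or H2-D1, bound to the invariant light chain beta-2-microglobulin, encoded by B2m. Peptides are cut by the proteasome, carried into the endoplasmic reticulum by the TAP1 and TAP2 pump, and loaded with the help of tapasin (Tapbp), which bridges the pump and the heavy chain. Interferon adds 3 alternative catalytic subunits to the proteasome: Psmb8 replaces Psmb5, Psmb9 replaces Psmb6 and Psmb10 replaces Psmb7. Nlrc5 is the transactivator of class I genes and acts at their promoters with the RFX and NF-Y complexes and CREB-type factors.

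Of the 10 genes, 7 lie on chromosome 17, in and around the mouse MHC, 2 on chromosome 8 and 1 on chromosome 2. Promoter stretches of the classical heavy chains, of the light chain, of Psmb8 and of the region between Tap1 and Psmb9 are shown because these genes moved together in the EO771 comparison and because Tap1 and Psmb9 are transcribed away from each other from RefSeq starts with 225 bases between them. The gene coordinates given below are from GENCODE M21, where the starts differ and exons of Tap1 and Psmb9 overlap by 212 bases. The sequences are from RefSeq, build GRCm38.p6, and run 5′ to 3′ on the strand of the gene, ending at the base before its start. Capitals mark every match, on either strand, to 1 of 5 patterns: GAAANNGAA (the core of an interferon-stimulated response element), TTCNNNGAA (a gamma-activated site), GGGNNTTNC (a kappaB-like core), CCAAT (the Y box bound by NF-Y) and TGACG (a core bound by CREB-type factors).
H2-K1, chr17:34000348-34000597, minus strand: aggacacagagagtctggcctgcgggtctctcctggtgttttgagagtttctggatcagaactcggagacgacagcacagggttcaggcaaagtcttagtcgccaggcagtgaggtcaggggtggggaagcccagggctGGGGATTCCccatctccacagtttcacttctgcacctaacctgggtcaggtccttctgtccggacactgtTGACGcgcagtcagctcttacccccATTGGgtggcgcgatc
H2-D1, chr17:35262844-35263093, plus strand: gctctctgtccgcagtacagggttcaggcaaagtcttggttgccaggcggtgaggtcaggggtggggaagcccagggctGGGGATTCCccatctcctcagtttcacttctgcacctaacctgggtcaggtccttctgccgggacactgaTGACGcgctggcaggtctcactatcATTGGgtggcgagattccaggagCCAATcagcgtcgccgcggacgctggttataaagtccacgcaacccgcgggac
B2m, chr2:122147437-122147686, plus strand: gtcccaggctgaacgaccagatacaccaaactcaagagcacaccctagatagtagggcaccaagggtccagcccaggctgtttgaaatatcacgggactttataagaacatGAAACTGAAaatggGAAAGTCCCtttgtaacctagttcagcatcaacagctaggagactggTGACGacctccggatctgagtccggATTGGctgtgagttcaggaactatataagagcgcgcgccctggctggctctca
Psmb8, chr17:34197945-34198194, plus strand: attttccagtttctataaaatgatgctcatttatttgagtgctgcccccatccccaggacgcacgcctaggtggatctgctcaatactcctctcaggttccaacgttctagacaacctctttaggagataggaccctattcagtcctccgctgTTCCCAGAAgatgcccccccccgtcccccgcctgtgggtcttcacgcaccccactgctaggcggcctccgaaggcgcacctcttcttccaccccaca
Tap1 and Psmb9, chr17:34187331-34187555, plus strand, Tap1 to the right: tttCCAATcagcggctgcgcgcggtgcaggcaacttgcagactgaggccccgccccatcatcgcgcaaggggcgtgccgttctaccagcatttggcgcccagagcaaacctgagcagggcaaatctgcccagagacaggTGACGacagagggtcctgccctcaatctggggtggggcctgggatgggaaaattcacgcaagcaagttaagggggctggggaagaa

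RefSeq windows from 250 bases before to 50 bases after the start were matched by symbol for 8 of the 10 genes, and those of Tap2 and Nlrc5 were not analysed here. The kappaB-like pattern was found in 3 of the 8 windows, those of H2-K1, H2-D1 and B2m, against 15.2% of all 32817 windows. CCAAT was in 6 of the 8 windows against 37.4% of all windows, and TGACG in 5 of the 8 against 20.8%. The windows of Tap1 and Psmb9 cover nearly the same bases, and the same CCAAT and TGACG sites are counted for both genes. These counts therefore do not rest on 8 separate stretches. GAAANNGAA was found in the B2m window, 139 bases before the start and upstream of the kappaB-like match at 125, and occurs in 8.55% of all windows. TTCNNNGAA was found in the Psmb8 window, 97 bases before the start, and occurs in 8.29% of all windows. In H2-K1 and H2-D1 the same 9 letters, ggggattcc, made the kappaB-like match, 111 and 171 bases before their RefSeq starts. The Psmb10 window held none of the 5 patterns, and those of Psmb8 and Tapbp held 1 kind each, TTCNNNGAA in Psmb8 and CCAAT in Tapbp. These are letter matches and were not measured as binding sites. Each element was searched in 1 form only, so a stretch without a match is not shown to lack the element. This holds for GAAANNGAA in H2-K1 and H2-D1 as well.

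Values are deposited counts divided by a size factor per library (normalised counts). A call needed an adjusted p below 0.05 together with a change of more than 2 times, that is over 1 in size on the log2 scale; "by adjusted p alone" drops the second condition. Library totals were 56.4e6 to 79.4e6 in the endothelial table and 17.3e6 to 18.6e6 in the EO771 table. Low endothelial values favoured steps of 3.74 to 3.79 units, the strongest within the range of step sizes searched. The strength was 0.248 to 0.288 on a scale of 0 to 1, and not every low value is a multiple of the step. A unit was therefore not taken as 1 fragment, nor the endothelial totals as fragment totals. The summed level of 7 endothelial markers was 1835 to 2787 CPM (counts scaled to library size) in the 12 endothelial libraries and 6.66 to 10.7 in EO771. The summed level of 5 high endothelial markers was 975 to 3054 CPM in HECs and 4.90 to 8.09 in BECs, carried by Glycam1, Chst4 and Fut7. Chst4 was near 0 in HEC normal replicate 2 (0.0596 CPM) and Madcam1 was at 0 in all 3 HEC normal libraries. Gcnt1 was lower in HECs, at 4.1 to 4.47 CPM in HEC normal against 4.56 to 5.88 in BEC normal. With tumour it was 4.1 to 6.08 in HECs against 6.53 to 7.87 in BECs. BEC tumour libraries held more of the 15 leukocyte markers (1489 to 2007 CPM summed, against 110 to 131 in BEC normal), and these values are given again beside the results they touch. In bulk libraries, fewer cells of a type and less RNA per cell cannot be told apart.

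In EO771 cells given 12-HETE, transcripts of every one of the 10 genes were lower than in vehicle, by 2.33 times for B2m up to 24.2 times for Psmb9. All 10 were called lower, against 7.79% of the 11602 genes tested called lower and 2.38% called higher. By adjusted p alone the background was 24.2% lower and 22.7% higher. In none of the 10 genes did the vehicle and 12-HETE libraries overlap. The share of all genes without such overlap was not computed, so this separation has no background beside it. The median log2 fold change of the 10 genes was −2.45, beside 0.001 over all genes tested. The direction and the call held for each of the 10 under every alternative that tested the gene (11 alternatives, 8 for H2-K1).

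The classical heavy chain of EO771 cells was almost entirely H2-D1 (chr17:35262730-35267499, plus strand). Its normalised counts were 37346, 43139 and 33635 with vehicle and 14351, 14566 and 13960 with 12-HETE. The lowest vehicle library stood above every 12-HETE library, and the log2 fold change was −1.41 ± 0.11 (SE, adjusted p = 8.12e-35). H2-K1 (chr17:33996017-34000347, minus strand) had 18.8, 18.2 and 18.4 normalised counts with vehicle and 1.03, 1.97 and 2.95 with 12-HETE. These are single reads rather than a measured level: 56 counts in the 3 vehicle libraries and 6 in the 3 12-HETE libraries, a ratio of 9.47 per total count (exact 95% interval 4.09 to 26.9, counting error only). Its adjusted p was 0.000214. Its mean over the 6 libraries lay just above the filter of 10, and without any 1 of the vehicle libraries it fell under the filter and was not tested. Deposited H2-K1 was 0.0421% to 0.0548% of H2-D1 in vehicle cells, against 15.4% to 37.6% in the sorted endothelial cells. In the reference annotation 99.0% of 100-base windows of H2-K1 transcripts and 96.4% of those of H2-D1 match no other gene. Why H2-K1 was near 0 in this line was not tested.

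B2m (chr2:122147686-122153083, plus strand), the light chain that every classical class I molecule needs, changed least of the 10. It had 15047, 15911 and 17444 normalised counts with vehicle and 6884, 7107 and 6793 with 12-HETE. The 12-HETE libraries lay close together, far under the vehicle libraries, and the log2 fold change was −1.22 ± 0.09 (SE, adjusted p = 1.82e-40). Per length, B2m stood at 1053 ± 88.3 CPM per kb with vehicle and 441 ± 11.3 with 12-HETE, and H2-D1 at 828 ± 106 and 304 ± 7.52 (SD, n = 3 each).

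The peptide pump and its bridge were lower as well, Tap1 by 13.4 times. Tap1 (chr17:34187553-34197225, plus strand) had 5277, 5777 and 4781 normalised counts with vehicle and 408, 386 and 385 with 12-HETE, a log2 fold change of −3.75 ± 0.11 (SE, adjusted p = 2.53e-240). Its partner Tap2 (chr17:34203527-34216321, plus strand) had 224, 219 and 175 with vehicle and 44.2, 49.3 and 40.4 with 12-HETE, a log2 fold change of −2.21 ± 0.22 (adjusted p = 2.45e-21). Tapbp (chr17:33915899-33929292, plus strand), which holds the empty heavy chain at the pump, had 4489, 5433 and 4558 with vehicle and 761, 734 and 731 with 12-HETE, a log2 fold change of −2.70 ± 0.11 (adjusted p = 1.97e-126). Although their proteins form 1 pump, the Tap1 level with vehicle was 54.1 ± 5.17 CPM per kb and that of Tap2 3.05 ± 0.38, and with 12-HETE they were 3.93 ± 0.14 and 0.646 ± 0.0666 (SD, n = 3 each). Whether the changes of individual members differed from one another was not tested.

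The largest changes were in Psmb8 and Psmb9. Psmb8 (chr17:34197721-34201454, plus strand), the chymotrypsin-like immunosubunit, had 423, 461 and 404 normalised counts with vehicle and 27.7, 27.6 and 12.8 with 12-HETE, a log2 fold change of −4.24 ± 0.25 (SE, adjusted p = 5.16e-65). Replicate 3 of the 12-HETE group lay below the other two. Psmb9 (chr17:34181987-34187764, minus strand), the immunosubunit whose start faces that of Tap1, had 451, 556 and 490 with vehicle and 19.5, 21.7 and 20.7 with 12-HETE, a log2 fold change of −4.60 ± 0.24 (adjusted p = 3.51e-81). Psmb10 (chr8:105935735-105938444, minus strand), which lies outside the MHC, had 1134, 1703 and 1075 with vehicle and 481, 521 and 451 with 12-HETE, a log2 fold change of −1.43 ± 0.19 (adjusted p = 6.45e-13). Vehicle replicate 2 stood well above the other vehicle libraries for Psmb10, and the groups still did not overlap. Exons of Tap1 and Psmb9 overlap on opposite strands, and exons of Psmb8 overlap those of Gm20496, so reads of overlapping stretches may be shared where counting did not use the strand.

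Nlrc5 (chr8:94434356-94527272, plus strand), the class I transactivator, had 1866, 1751 and 2094 normalised counts with vehicle and 424, 431 and 434 with 12-HETE. The 12-HETE libraries were nearly identical, and the log2 fold change was −2.15 ± 0.11 (SE, adjusted p = 1.54e-78). Marker sums moved between the treatments as well: 5 epithelial markers summed to 2867 to 3781 CPM with vehicle and 1929 to 1985 with 12-HETE, and 5 fibroblast markers to 390 to 613 and 998 to 1037, carried by Dcn (385 to 608 against 987 to 1028 CPM). Pdgfra was higher as well, at 3.56 to 4.64 CPM with vehicle and 8.81 to 10.6 with 12-HETE, while Col1a1 overlapped. Lum was at 0 in all 6 libraries and Col1a2 at most 0.0578 CPM. The 15 leukocyte markers summed to 15.8 to 20.9 CPM with vehicle and 18.2 to 19.4 with 12-HETE. The part of these differences in the class I results was not tested.

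**Figure D1:**
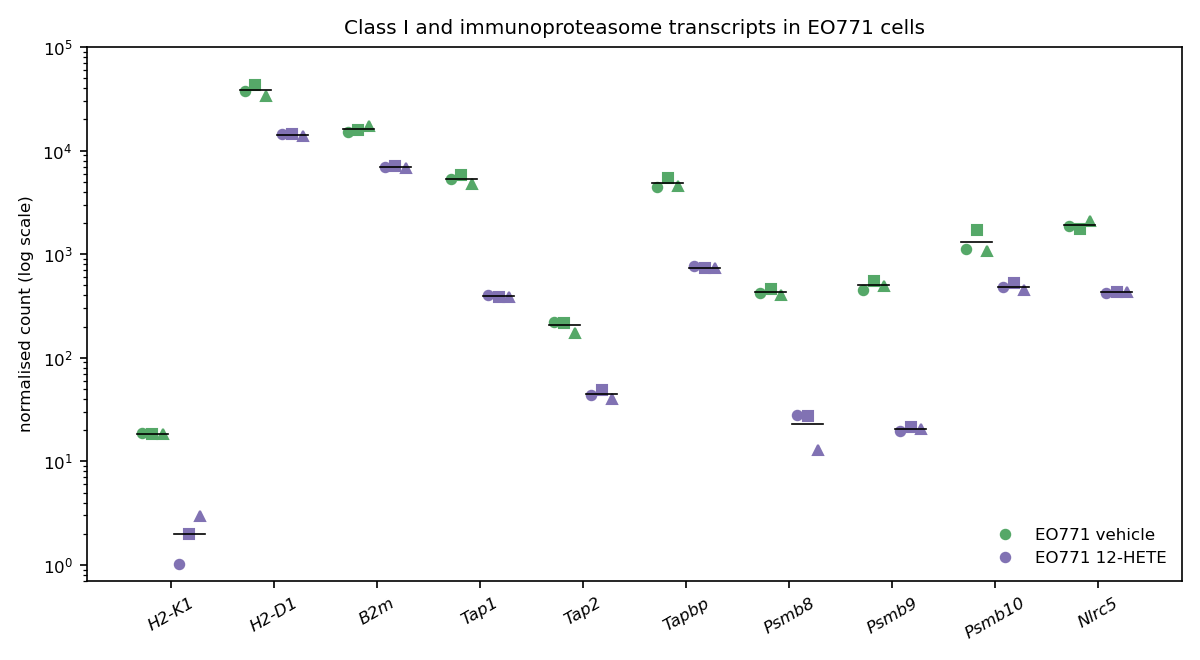
Normalised count (log scale) of each of the 10 genes in the EO771 libraries, vehicle in green and 12-HETE in purple, with 1 symbol per library (circle, square and triangle for replicates 1, 2 and 3) and a line at each group mean. Vehicle libraries stand above 12-HETE libraries in all 10 genes, and H2-K1 lies between 1.03 and 18.8 while H2-D1 lies between 13960 and 43139.

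The constitutive catalytic subunits of the proteasome gave a different picture in the same libraries. Psmb5 had 1998, 2176 and 1759 normalised counts with vehicle and 2118, 2341 and 2056 with 12-HETE (log2 fold change 0.13 ± 0.12, adjusted p = 0.346). Psmb6 and Psmb7 had log2 fold changes of 0.02 ± 0.09 and 0.17 ± 0.11 (adjusted p = 0.882 and 0.185). For all 3 the libraries of the treatments overlapped. Per library, the deposited value of Psmb8 was 21.1%, 21.2% and 23% of that of Psmb5 with vehicle and 1.31%, 1.18% and 0.622% with 12-HETE. Psmb9 was 12.6%, 16.2% and 15.2% of Psmb6 with vehicle and 0.587%, 0.598% and 0.602% with 12-HETE. Psmb10 was 35.9%, 57.7% and 41.9% of Psmb7 with vehicle and 15.4%, 15.4% and 13.9% with 12-HETE. These percentages are not corrected for exon length, so they compare groups and not subunits. The lengths are 3381 and 899 bases for Psmb8 and Psmb5, 3660 and 1872 for Psmb9 and Psmb6, and 1705 and 3421 for Psmb10 and Psmb7. Per length, vehicle cells averaged 7.13 CPM per kb of Psmb8 against 123 of Psmb5, and 43 of Psmb10 against 47.4 of Psmb7. The log2 ratios differed by −4.46, −4.61 and −1.58, each with an exact permutation p of 0.1, the smallest that 3 libraries against 3 allow (two-sided, 0.136 after adjustment over 15 ratio tests).

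**Figure D2:**
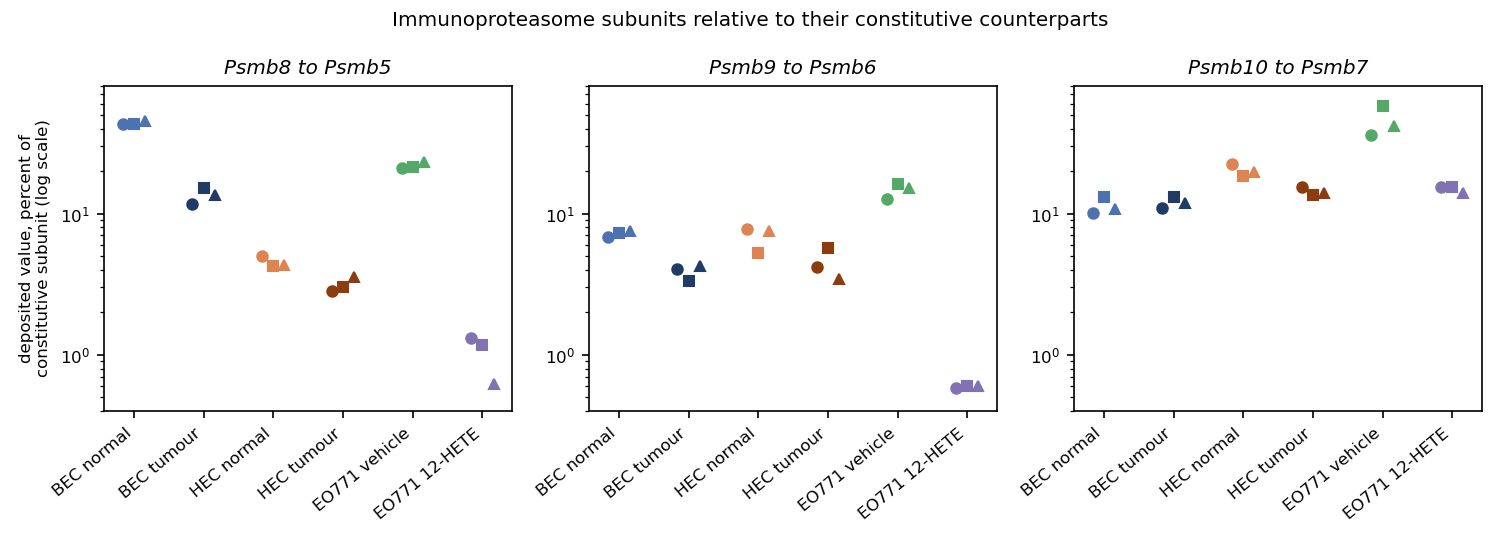
Deposited value of each immunoproteasome subunit as a percentage of that of its constitutive counterpart (log scale), 1 symbol per library in the 6 groups. Values are not corrected for exon length, so heights compare groups within a panel and not subunits between panels. In EO771 cells Psmb8 and Psmb9 drop from 21.1% and 12.6% or more with vehicle to 1.31% and 0.602% or less with 12-HETE, and Psmb8 stands at 43.1% to 44.9% in BEC normal against 2.85% to 4.98% in HECs.

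Among endothelial cells, HECs of normal nodes had more light chain, pump and transactivator transcript than fat pad BECs, and much less Psmb8. Psmb8 was the one member called in HEC normal against BEC normal, lower in HECs, where 15.2% of the 18446 genes tested were called lower and 17.2% higher. By adjusted p alone 6 members were higher (H2-D1, B2m, Tap1, Tap2, Psmb10 and Nlrc5) and 2 lower (H2-K1 and Psmb8), beside 31.5% higher and 32.0% lower over all genes. Tapbp and Psmb9 did not pass (adjusted p = 0.0874 and 0.0922), though their libraries did not overlap between these groups. Tapbp passed when TMM factors were used and when these 2 groups were fitted alone (adjusted p = 0.0358 and 0.00605).

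Psmb8 was the member most unlike between the cell types. In BEC normal it had 3071, 4012 and 3909 normalised counts. In HEC normal it had 680, 583 and 597, so that HECs were lower by a log2 fold change of −2.56 ± 0.16 (SE, adjusted p = 8.16e-60). With tumour the order held, at 945, 1250 and 1288 in BEC tumour and 339, 344 and 393 in HEC tumour (−1.69 ± 0.16, adjusted p = 4.06e-25). No library of any of the 4 groups overlapped with another group: both BEC groups stood above both HEC groups, and within each cell type normal stood above tumour. As a share of deposited Psmb5, not corrected for exon length, Psmb8 was 43.1%, 43.4% and 44.9% in BEC normal and 4.98%, 4.27% and 4.33% in HEC normal. The log2 ratio was lower by 3.28 in HECs (exact permutation p = 0.1, 0.136 adjusted). For the other immunosubunits the ratio stood differently. The log2 ratio of Psmb9 to Psmb6 differed by −0.09 (exact permutation p = 0.9) and that of Psmb10 to Psmb7 by 0.85, higher in HECs (exact permutation p = 0.1).

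B2m separated the endothelial groups without any overlap, both HEC groups above both BEC groups. Its normalised counts were 143884, 130949 and 139055 for normal and 99230, 99495 and 98075 for tumour HECs. For BECs they were 79214, 79408 and 79992 in normal and 52865, 55290 and 55098 in tumour tissue. HECs had more than BECs in both settings, by a log2 fold change of 0.79 ± 0.04 in normal tissue (SE, adjusted p = 3.23e-75) and 0.86 ± 0.04 with tumour (adjusted p = 8.06e-88). H2-D1 had 91312, 85531 and 89149 in HEC normal, 61231, 78502 and 73762 in BEC normal, 66692, 66333 and 62812 in HEC tumour and 41993, 44866 and 45851 in BEC tumour. The middle groups of that order, BEC normal and HEC tumour, overlapped. H2-K1 had another order, highest in BEC normal with 21854, 29515 and 26633 and then HEC normal with 18276, 16731 and 16301. Its tumour groups overlapped, with 11018, 10233 and 12685 for HECs and 7041, 8377 and 12701 for BECs. As a share of deposited H2-D1, H2-K1 was 35.7% to 37.6% in BEC normal, and between 15.4% and 27.7% in the other groups: 18.3% to 20% in HEC normal, 15.4% to 20.2% in HEC tumour and 16.8% to 27.7% in BEC tumour. This share was chosen after the values were seen and was not tested.

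**Figure D3:**
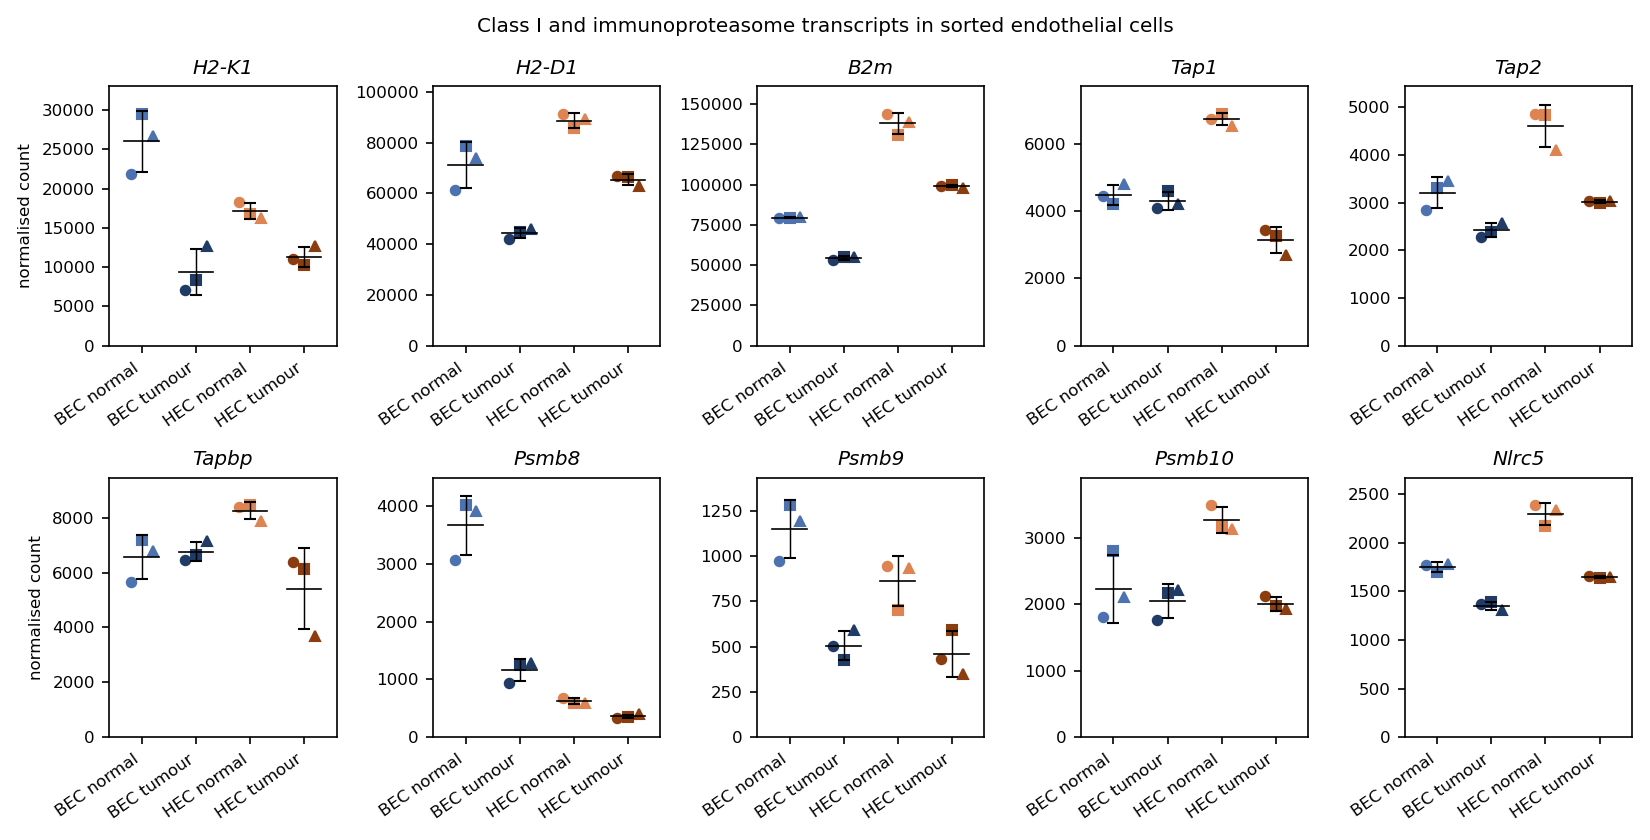
Normalised count of each of the 10 genes in the 4 endothelial groups, with 1 symbol per library (circle, square and triangle for replicates 1, 2 and 3), a line at the mean and bars of 1 SD (n = 3), on linear axes from 0. HEC tumour libraries lie below HEC normal libraries in all 10 genes, and Psmb8 ranges from 3071 to 4012 in BEC normal down to 339 to 393 in HEC tumour.

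Tumour HECs were compared with normal HECs to ask how the class I genes of the node vessels stood when the node held tumour. All 10 members were lower by adjusted p alone, beside 18.6% of genes lower and 17.0% higher. In none of the 10 did the libraries of the groups overlap, but the share of all genes without overlap was not computed. The size was moderate: Tap1 alone passed the fold limit, beside 3.23% of genes called lower and 4.60% called higher, and the median log2 fold change of the 10 was −0.61 against 0.019 over all genes tested. Tap1 had 6752, 6899 and 6543 normalised counts in the normal HEC libraries against 3431, 3278 and 2705 with tumour, a log2 fold change of −1.10 ± 0.10 (SE, adjusted p = 2.38e-27). The other pump subunit, Tap2, had 4860, 4840 and 4092 in HEC normal and 3038, 2988 and 3038 in HEC tumour (−0.61 ± 0.10, adjusted p = 1.6e-08). Tapbp had 8405, 8450 and 7890 in HEC normal and 6369, 6141 and 3701 in HEC tumour (−0.61 ± 0.18, adjusted p = 0.00234), with replicate 3 of HEC tumour far below its group.

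The immunosubunits of HECs were lower with tumour by log2 fold changes of −0.79 ± 0.16 for Psmb8, −0.91 ± 0.23 for Psmb9 and −0.70 ± 0.16 for Psmb10 (SE, adjusted p = 8.2e-06, 0.000314 and 5.39e-05). Psmb9 had 945, 702 and 937 normalised counts in normal HECs against 434, 594 and 346 with tumour. Without HEC normal replicate 2 its log2 fold change was −1.04 and without HEC tumour replicate 2 it was −1.14, both past the fold limit, so 2 members were then called. Psmb10 had 3492, 3175 and 3142 in HEC normal and 2128, 1970 and 1933 in HEC tumour. The constitutive subunits were also slightly lower, Psmb6 by −0.30 ± 0.09 and Psmb5 by −0.26 ± 0.10 (adjusted p = 0.00194 and 0.0329). The ratio of immunosubunit to counterpart differed by −0.53, −0.63 and −0.50 on the log2 scale for Psmb8, Psmb9 and Psmb10, with exact permutation p of 0.1, 0.2 and 0.1.

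H2-K1, H2-D1 and B2m of HECs were lower with tumour by log2 fold changes of −0.60 ± 0.19, −0.44 ± 0.09 and −0.48 ± 0.04 (SE, adjusted p = 0.00692, 4.9e-06 and 3.14e-27). Without HEC tumour replicate 2, H2-K1 was at −0.53 ± 0.22 (adjusted p = 0.0501), so 9 members then passed by adjusted p alone. Nlrc5 had 2383, 2168 and 2332 normalised counts in normal HECs against 1658, 1631 and 1648 with tumour, a log2 fold change of −0.48 ± 0.06 (adjusted p = 1.33e-12). The leukocyte markers summed to 485 to 510 CPM in HEC normal and 357 to 375 in HEC tumour, nearly all of it Cd68. Ptprc was at most 0.435 CPM and Cd3e, Cd3g, Cd8a and Ms4a1 were at 0 in all 6 HEC libraries. The epithelial markers summed to 1.31 to 3.10 CPM in HEC normal and 0.792 to 1.25 in HEC tumour, with Epcam at 0 in all HEC tumour libraries. The summed high endothelial markers moved the other way, from 975 to 1327 CPM in HEC normal up to 2221 to 3054 in HEC tumour. Not every marker rose in every library. Fut7 was 221 CPM in its lowest HEC tumour library, against 397 to 434 in HEC normal. Gcnt1 overlapped, at 4.1 to 6.08 in HEC tumour and 4.1 to 4.47 in HEC normal. The part of these markers in the class I result was not tested.

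Tumour BECs were compared with fat pad BECs in the same way. H2-K1, Psmb8 and Psmb9 were called lower, beside 10.9% of genes called lower and 12.5% higher. By adjusted p alone 7 were lower, adding H2-D1, B2m, Tap2 and Nlrc5, beside 27.3% lower and 26.6% higher over all genes. The median log2 fold change of the 10 was −0.48 against 0.009 over all genes. The log2 fold changes were −1.47 ± 0.19 for H2-K1, −1.66 ± 0.15 for Psmb8 and −1.18 ± 0.22 for Psmb9 (SE, adjusted p = 8.75e-14, 4.74e-26 and 5.41e-07). Psmb9 had 974, 1281 and 1196 normalised counts in BEC normal and 502, 426 and 590 in BEC tumour. H2-D1 was lower by −0.69 ± 0.09 and B2m by −0.55 ± 0.04 (adjusted p = 6.43e-14 and 6.46e-36).

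For Tap1, Tapbp and Psmb10 the tumour and normal BEC libraries overlapped, and none of these 3 passed the test. Tap1 had 4451, 4219 and 4803 normalised counts in BEC normal and 4093, 4594 and 4218 in BEC tumour (−0.06 ± 0.10, adjusted p = 0.622). Tapbp had 5661, 7201 and 6802 against 6466, 6657 and 7141 (0.04 ± 0.18, adjusted p = 0.86), and Psmb10 had 1803, 2801 and 2107 against 1763, 2174 and 2222 (−0.12 ± 0.16, adjusted p = 0.537). The remaining pump subunit, Tap2, was 2850, 3313 and 3461 in BEC normal and 2288, 2392 and 2579 in BEC tumour (−0.41 ± 0.10, adjusted p = 0.000154). Nlrc5 was 1772, 1695 and 1782 in BEC normal and 1364, 1387 and 1306 in BEC tumour (−0.37 ± 0.06, adjusted p = 4.18e-08).

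Markers of other cells moved with the BEC groups. All 15 leukocyte markers had a value above 0 in at least 1 BEC tumour library and Cd3e, Cd3g, Cd8a and Ms4a1 were at 0 in all BEC normal libraries. Lyz2, a macrophage and granulocyte gene, was 567 to 919 CPM in BEC tumour and 2.74 to 6.38 in BEC normal, and Ptprc, which encodes the CD45 that the sort excluded, was 5.95 to 12.8 and 0.118 to 0.362. The epithelial markers summed to 7.91, 11 and 71.6 CPM in BEC tumour replicates 1, 2 and 3 and 1.32 to 2.86 in BEC normal. H2-K1 was highest in replicate 3 among the BEC tumour libraries, and without that library the log2 fold change of H2-K1 was −1.75. The endothelial markers summed to 2578 to 2787 CPM in BEC normal and 1835 to 1897 in BEC tumour, and Cldn5 was 232 to 280 and 0.246 to 0.554. Pecam1, Kdr, Tek and Egfl7 were lower in BEC tumour too. Cdh5 overlapped, at 857 to 970 in BEC normal and 879 to 921 in BEC tumour. Erg was higher in BEC tumour, at 84.1 to 94.3 and 122 to 137. The 4 class II markers of antigen presenting cells summed to 26.5 to 28.3 CPM in BEC tumour against 2.52 to 4.07 in BEC normal (1.08 to 3.97 in HECs). The fibroblast markers summed to 159 to 168 CPM in BEC normal and 17 to 41.6 in BEC tumour, with Lum at 0 in BEC normal. The part of these markers in the BEC tumour results was not tested.

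Between the cell types with tumour, Psmb8 was again the one member called in HEC tumour against BEC tumour, beside 10.7% of genes called lower in HECs and 11.3% higher. By adjusted p alone 4 members were higher in HECs (H2-D1, B2m, Tap2 and Nlrc5) and 2 lower (Tap1 and Psmb8), beside 26.0% higher and 28.5% lower over all genes. For Tap1 the order of the cell types turned: HECs were above BECs in normal tissue (0.58 ± 0.10 SE, adjusted p = 8.19e-09) and below them with tumour (−0.46 ± 0.10, adjusted p = 1.34e-05). H2-K1, Psmb9 and Psmb10 had overlapping libraries with tumour. H2-K1 had a log2 fold change of 0.27 ± 0.19 (adjusted p = 0.228), which was 0.55 ± 0.14 (adjusted p = 0.000433) without BEC tumour replicate 3. Tapbp had −0.32 ± 0.18 (adjusted p = 0.11), and −0.45 ± 0.19 (adjusted p = 0.0321) without HEC tumour replicate 1. The leukocyte markers summed to 1489 to 2007 CPM in BEC tumour and 357 to 375 in HEC tumour, and the class II markers to 26.5 to 28.3 and 1.08 to 3.22, and their part in this comparison was not tested. These comparisons share their libraries with those of tumour against normal cells, so they are not separate evidence.

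Whether tumour changed HECs and BECs unequally was tested as an interaction, in which a value above 0 means a higher log2 fold change (tumour over normal) for HECs than for BECs. Tap1 was called (−1.04 ± 0.14 SE, adjusted p = 6.55e-13), beside 12.1% of genes called lower and 11.2% higher. The call rests on the fold limit, since the value was −0.99 without BEC normal replicate 2, −0.99 without BEC tumour replicate 2 and −0.95 without HEC tumour replicate 3. By adjusted p alone 3 members were lower (Tap1, Tapbp and Psmb10) and 2 higher (H2-K1 and Psmb8), beside 23.8% lower and 4246 of 18446 genes higher. Tapbp and Psmb10, like Tap1, were lower with tumour in HECs and overlapped in BECs (−0.65 ± 0.25 and −0.58 ± 0.22, adjusted p = 0.0205 and 0.0219). Without BEC normal replicate 1 or BEC tumour replicate 3 neither passed, which left Tap1 as the 1 member lower by adjusted p alone (Tapbp at 0.0594 and 0.0509, Psmb10 at 0.0548 and 0.0635). Psmb10 also missed the threshold without BEC normal replicate 3, BEC tumour replicate 2, HEC normal replicate 1, HEC tumour replicate 2 or HEC tumour replicate 3 (adjusted p from 0.0502 to 0.0665). H2-K1 and Psmb8 were lower with tumour in both cell types, by more in BECs (0.88 ± 0.27 and 0.87 ± 0.22, adjusted p = 0.00342 and 0.000344). H2-D1, B2m, Tap2, Psmb9 and Nlrc5 had differences from −0.20 to 0.27 that did not pass, although H2-D1 reached 0.35 ± 0.08 (adjusted p = 8.89e-05) without BEC normal replicate 1. BEC tumour held the most leukocyte marker transcript here too (1489 to 2007 CPM, against 110 to 131 in BEC normal, 485 to 510 in HEC normal and 357 to 375 in HEC tumour), and its part in the interaction was not tested.

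**Figure D4:**
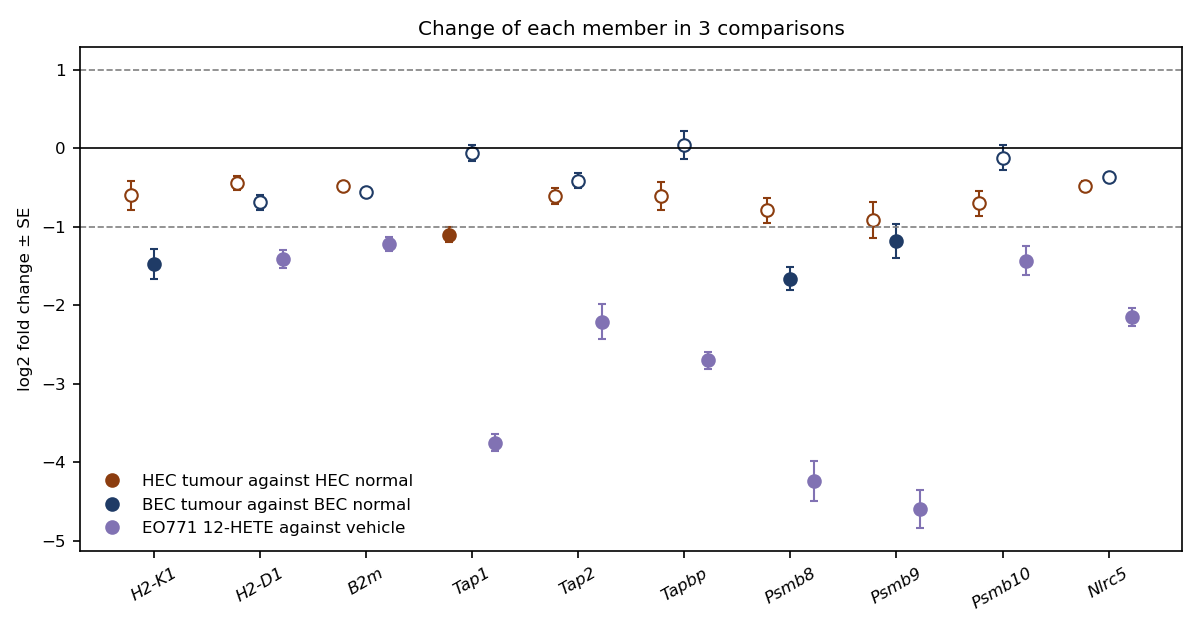
Log2 fold change with its SE for the 10 genes in 3 comparisons, tumour against normal HECs in brown, tumour against normal BECs in dark blue and 12-HETE against vehicle in EO771 cells in purple, with called genes filled, others open and dashed lines at the fold limit of 2. Among the members drawn, the EO771 changes run from −1.22 to −4.60 and those in HECs from −0.44 to −1.10, and H2-K1 is left out for EO771 because its 12-HETE libraries hold 1 to 3 counts.

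Other genes of the class I pathway were taken from 4 lists: 15 nonclassical and related class I genes, 6 for peptide trimming and loading, 7 proteasome partners and 11 regulators. In EO771 cells, 7 of the 10 nonclassical genes tested were called lower with 12-HETE, beside 7.79% of all genes, with a list median of −2.23 against 0.001 over all genes. H2-T23, the Qa-1 heavy chain that presents a leader peptide of other class I chains to natural killer cells, had 3175, 4106 and 2828 normalised counts with vehicle and 590, 478 and 498 with 12-HETE (−2.69 ± 0.16 SE, adjusted p = 8e-59). H2-Q4 had 2238, 2642 and 2184 against 370, 371 and 350 (−2.70 ± 0.12, adjusted p = 3.57e-109), and H2-T22 had 4358, 4782 and 4002 against 1229, 1148 and 1204 (−1.88 ± 0.10, adjusted p = 8.06e-72). H2-T24 had 397, 272 and 376 against 5.14, 3.94 and 4.92 (−6.22 ± 0.44, adjusted p = 6.8e-44), and H2-T10 and H2-M3 were called lower as well. H2-Q6 had 39.6, 56.4 and 52.2 with vehicle and 0, 0.986 and 0 with 12-HETE, where the size of the fold is not resolved. H2-Q1, Cd1d1 and Mr1 did not follow: H2-Q1 had 409, 469 and 418 against 434, 359 and 399, and Mr1 was higher by adjusted p alone (0.91 ± 0.20, adjusted p = 3.79e-05). Of 100-base windows, 68.5% for H2-T22 and 71.9% for H2-T10 match no other gene, against 96.8% for H2-T23. Values of H2-T22 and H2-T10 are therefore the less certain ones. The gene sharing the most windows was A930015D03Rik for H2-T22 and BC023719 for H2-T10. Exons of these genes overlap theirs on the opposite strand, and H2-T22 and H2-T10 also share windows with each other.

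Of the 6 loading genes in EO771 cells, 3 were higher and 2 lower by adjusted p alone, beside 22.7% higher and 24.2% lower over all genes. Calr, Canx and Pdia3, general folding factors of the endoplasmic reticulum that also serve class I, were higher by adjusted p alone, at 0.32 ± 0.07, 0.56 ± 0.11 and 0.35 ± 0.07 on the log2 scale (SE, adjusted p = 3.96e-05, 1.79e-06 and 1e-06). Tapbpl, a tapasin relative that edits peptides, was lower (−0.86 ± 0.14, adjusted p = 1.05e-08), and Erap1, the trimming peptidase, did not pass (0.30 ± 0.16, adjusted p = 0.0969). The interferon-inducible proteasome activator subunits Psme1 and Psme2 were lower by adjusted p alone (−0.86 ± 0.11 and −0.76 ± 0.12, adjusted p = 1.91e-14 and 5.24e-09), while Psme3, of the other activator, had 4860, 4749 and 4780 with vehicle and 4798, 4884 and 4842 with 12-HETE (0.01 ± 0.07, adjusted p = 0.888).

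Among the regulators in EO771 cells, Irf1 and Rfx5 were called lower with 12-HETE. Irf1, an activator of interferon-responsive promoters, had 2588, 2469 and 2423 normalised counts with vehicle against 988, 920 and 841 with 12-HETE (−1.44 ± 0.10 SE, adjusted p = 3.69e-45), and Rfx5, a subunit of the RFX complex that NLRC5 joins, had 266, 293 and 308 against 98.6, 81.8 and 94.5 (−1.66 ± 0.17, adjusted p = 3.78e-20). Nfya of the NF-Y complex and Creb1 were higher by adjusted p alone (0.54 ± 0.17 and 0.59 ± 0.22, adjusted p = 0.00472 and 0.0157), and Nfyb and Nfyc did not pass (0.13 ± 0.12 and −0.06 ± 0.11, adjusted p = 0.384 and 0.692). Ciita, the class II counterpart of Nlrc5, had at most 1.91 normalised counts and was not tested.

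In endothelial cells, Irf1 did not pass with tumour in either cell type (−0.34 ± 0.33 SE in HECs and 0.60 ± 0.33 in BECs, adjusted p = 0.453 and 0.109). Rfx5 was lower with tumour in HECs by adjusted p alone (−0.43 ± 0.13, adjusted p = 0.00325) and did not pass in BECs (−0.07 ± 0.13, adjusted p = 0.643). Irf1 varied within its groups, with HEC normal replicate 3 at 5518 against 2057 and 2089. Ciita had 33.4, 25.4 and 20.9 in BEC tumour and was at 0 in BEC normal and HEC normal, alongside the leukocyte values given above, and was not tested.

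Between HECs and BECs, 5 of the 13 nonclassical genes tested were called lower in HECs in both settings (H2-T23, H2-T24, H2-Q6, H2-Q7 and Cd1d1), beside 15.2% of all genes in normal tissue and 10.7% with tumour. H2-T23 had 1998, 2896 and 2670 normalised counts in BEC normal against 126, 146 and 154 in normal HECs (−4.15 ± 0.24 SE, adjusted p = 7.87e-66), and with tumour 1012, 1463 and 1119 against 68.1, 92.8 and 134 (−3.61 ± 0.25, adjusted p = 3.74e-47). H2-Q7 and H2-Q6, the Qa-2 chains, had 1348, 1817 and 1528 and 1367, 2016 and 1915 in BEC normal. In HEC normal H2-Q7 had 5.07, 5.09 and 9.56 and H2-Q6 had 6.09, 18.3 and 55.4, values of 1 to a few steps for H2-Q7, so that only their direction is given. H2-Q7 and H2-Q6 are near copies, with 88.0% and 87.0% of windows matching no other gene. Cd1d1, which presents lipids to natural killer T cells, had 450, 515 and 426 in BEC normal and 16.2, 8.14 and 12.4 in HEC normal (−5.24 ± 0.36, adjusted p = 4.85e-47). H2-Q4 and H2-T22 had the opposite order by adjusted p alone, H2-T22 with 8790, 10870 and 10172 in BEC normal and 15381, 14835 and 14983 in HEC normal (0.60 ± 0.10, adjusted p = 3.34e-09). Psme1 was called higher in normal HECs than normal BECs (1.26 ± 0.10, adjusted p = 2.96e-37). H2-M2 was called too, but from 0, 7.13 and 3.82 in HEC normal against 0 in every BEC normal library, and its libraries overlapped. With tumour, H2-Q4, H2-T10, H2-Q10 and H2-Q1 were called higher in HECs, beside 11.3% of all genes, H2-Q4 with 9473, 9761 and 10018 in HECs against 4605, 4957 and 5039 in BECs (1.00 ± 0.09, adjusted p = 3.84e-28). H2-T10 stood just past the fold limit (1.01 ± 0.19, adjusted p = 3.99e-07), and H2-Q10 had 87.7, 91.8 and 105 in HECs against 8.35, 5.08 and 0 in BECs (adjusted p = 0.000125).

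With tumour, 6 of the 13 nonclassical genes tested were called lower in BECs and 3 in HECs, beside 10.9% and 3.23% of all genes. These counts were not tested against those shares. In BECs these were H2-T23, H2-T10, H2-Q6, H2-Q7, H2-Q10 and Cd1d1, of which H2-Q10 had overlapping libraries (43.2, 0 and 34.5 against 8.35, 5.08 and 0). H2-Q7 was 398, 513 and 507 in BEC tumour (−1.73 ± 0.22 SE, adjusted p = 7.42e-14). In HECs they were H2-T22, H2-T24 and Mr1, the last at 1457, 1082 and 1260 in HEC normal and 623, 468 and 499 in HEC tumour (−1.26 ± 0.18, adjusted p = 1.15e-10). H2-Q7 was called higher in tumour HECs, at 47.3, 36.5 and 22.1, levels still far below those of BECs. H2-M2 was at 0 in all BEC normal libraries and had 74.2, 42.3 and 55.8 in BEC tumour, so no fold is given. Psme3 moved oppositely in the cell types, 0.62 ± 0.06 in HECs and −0.36 ± 0.06 in BECs (adjusted p = 3.17e-26 and 1.05e-09).

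**Figure D5:**
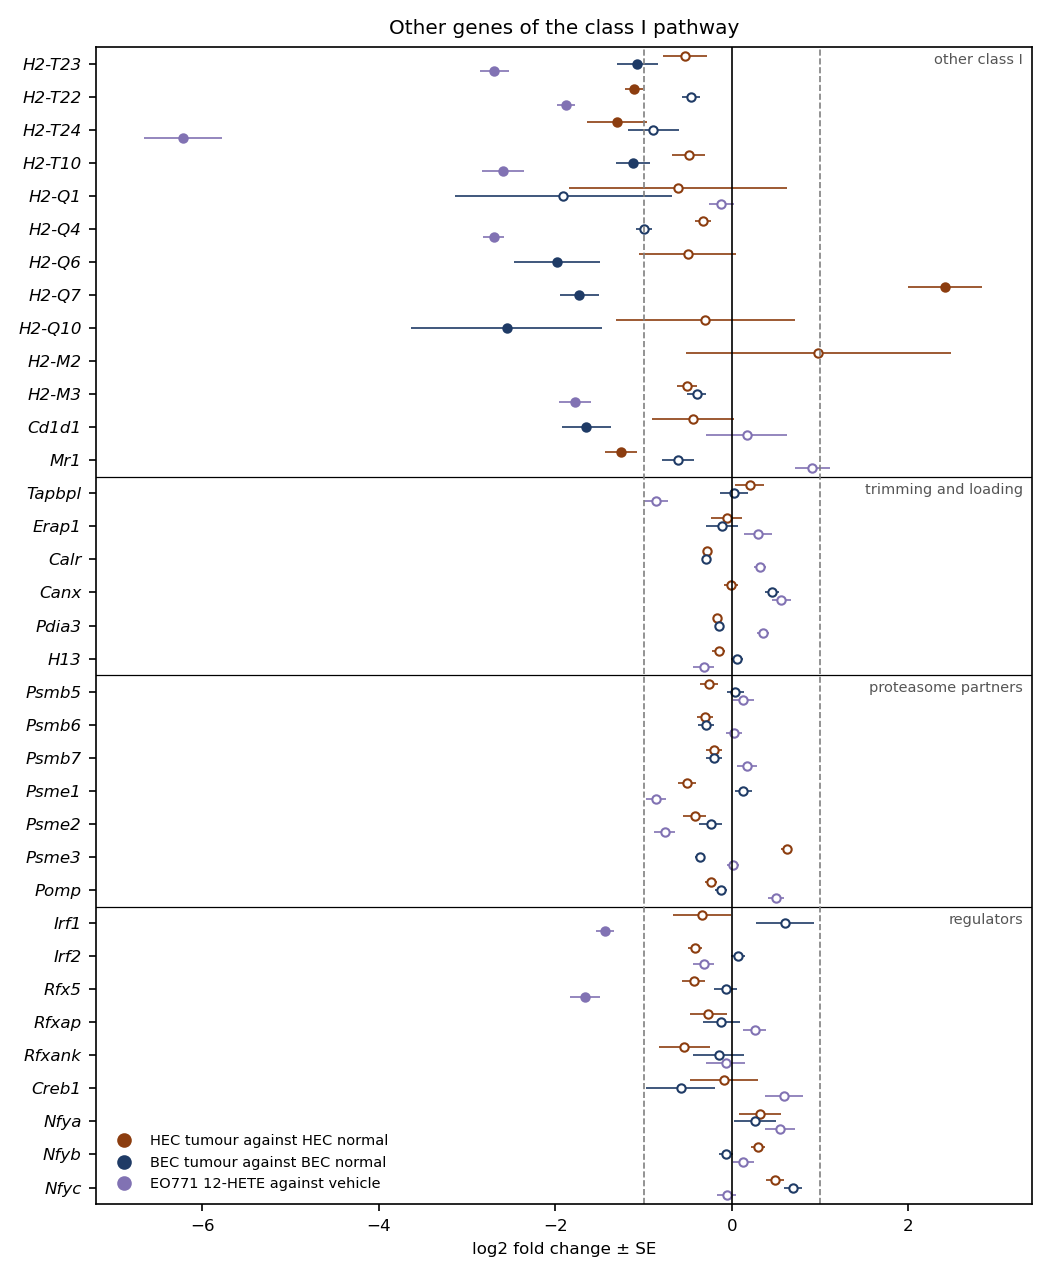
Log2 fold change with its SE for the pathway genes reported outside the 10, in the same 3 comparisons and colours, called genes filled and others open, grouped by list, with points left out where either group averages 3 or fewer normalised counts. Purple points of the nonclassical genes lie as far as −6.22, those of the constitutive proteasome subunits lie between 0.02 and 0.17, and Irf1 and Rfx5 lie at −1.44 and −1.66 in EO771 cells.

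Over the 12 endothelial libraries, the genes whose log2 levels were most like the mean standardised profile of the 10 members were Palm (Pearson r = 0.98), Oas2, Mgat4b, Narf and Nlgn2 (each 0.97), among 13290 genes with a mean of at least 100. Oas2, an interferon-induced sensor of double-stranded RNA, averaged 2163 normalised counts in normal BECs and 350 in tumour BECs, and 5116 in normal HECs and 572 in tumour HECs. Of the members, Tap2 was closest to the shared profile (r = 0.90, rank 119), and Psmb8 was farthest (r = 0.22, rank 4130). The profile holds each member's own values, which raises the members' correlations, so their ranks are not comparable with those of other genes. The libraries share their groups, so these correlations describe group means more than single libraries.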

How the data were processed

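RNA-seq of 18 mouse libraries was analysed from 2 gene tables. The authors aligned reads with STAR to GRCm38 and counted them with featureCounts, and the strand setting is not given in the sources used here. The deposited EO771 values are raw counts by the authors, by gene symbol. The deposited endothelial values, named raw counts by the authors, were treated as estimated counts. They are whole numbers by Ensembl identifier whose low values favour a step, found within the range of step sizes searched. A unit was therefore not taken as 1 fragment, and how the step arose is not given. Rows with a mean under 10 were removed. DESeq2 1.42.0 (R 4.3.3, default settings, following the study's methods) was fitted to the 12 endothelial libraries and, separately, to the 6 EO771 libraries, with group as the only term, Wald tests and Benjamini-Hochberg adjustment over all genes tested. The script was tested on simulated data. Subunit ratios, from deposited values, were compared by two-sided exact permutation tests (scipy 1.17.1). Per-length levels divide CPM by the exon length of GENCODE M21. In EO771, 33 symbols stood on more than 1 line; levels sum these lines, fits keep them apart, and none is a member or pathway gene. Of the endothelial identifiers, 260 had no symbol. No fold is given against a group at or under a floor of 3 counts, apart from 2 values stated with their limits. These are the H2-K1 count ratio in EO771 cells and the H2-M2 interaction difference. The EO771 list medians include H2-K1 among the members and H2-Q6 among the nonclassical genes. Reads carry no molecular identifiers, so intervals cover counting error only. The members and lists were chosen with earlier results of these data known. Named genes were the 10 members, pathway genes set by name (Psmb5, Psmb6, Psmb7, Psme1, Psme2, Irf1, Rfx5, Ciita, Erap1 and H2-T23), per comparison the 3 pathway genes called in each direction with the smallest adjusted p, and the 5 genes most like the members; other pathway genes were named after their values were seen, and some list genes are not reported here. Alternatives were the edgeR 4.0.16 quasi-likelihood test, TMM factors, no filter, adjusted p alone, only the groups compared, values divided by the step, a replicate block, each library left out, and, for ratios, a pseudocount of 1. Counts by adjusted p alone under each alternative were added after seeing the data.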

Additional observations from a re-analysis of the deposited data

Results flagged for a closer look

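Members and pathway genes for which the change with tumour in HECs differed from that in BECs, by the adjusted p of the interaction test, are listed with the log2 difference (HECs less BECs) and were 5 of the 10 members and 11 of the 36 pathway genes tested, beside 4246 of 18446 genes higher and 23.8% lower over all genes. Among members these were H2-K1 (0.88), Psmb8 (0.87), Tap1 (−1.04), Tapbp (−0.65) and Psmb10 (−0.58). Nonclassical genes were H2-Q7 (4.14, from values of a few steps in HECs), H2-Q4 (0.67), H2-T10 (0.64), H2-T22 (−0.66), Mr1 (−0.65) and H2-M2 (−7.28, where BEC normal is at 0, so the size is not resolved). The remaining ones were Psme3 (0.98), Psme1 (−0.64), Canx (−0.46), Irf2 (−0.49) and Nfyb (0.37). Leukocyte markers were 1489 to 2007 CPM in BEC tumour and 110 to 131 in BEC normal, and their part in these differences was not tested.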

How the results depend on the processing

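Every member kept its direction and its call in EO771 cells under the alternatives that tested it, and H2-K1 fell under the filter, and was not tested, without any 1 vehicle library. Counting by adjusted p alone gave 6 members higher and 2 lower in HEC normal against BEC normal, 4 higher and 2 lower in HEC tumour against BEC tumour, 10 lower in HEC tumour against HEC normal, 7 lower in BEC tumour against BEC normal, and 2 higher and 3 lower in the interaction. Without 1 library, members called lower were 1 to 2 in HEC tumour against HEC normal and 0 to 1 in the interaction, where 0 to 1 were called higher (H2-K1 at 1.15 without BEC tumour replicate 3) and 1 to 3 were lower by adjusted p alone (1 without BEC normal replicate 1 or BEC tumour replicate 3). By adjusted p alone, H2-K1 in HEC tumour against HEC normal reached 0.0501. Small log2 values changed sign when 1 library was left out: Psmb9 in HEC tumour against BEC tumour ran from −0.37 to 0.03, Psmb10 there from −0.13 to 0.03 (0.01 without BEC tumour replicate 2), Tapbp in BEC tumour against BEC normal from −0.06 to 0.11 and Psmb10 there from −0.26 to 0.06. The log2 ratio of Psmb9 to Psmb6 ran from −0.20 to 0.09 in HEC normal against BEC normal and from −0.02 to 0.35 in HEC tumour against BEC tumour. The cause was not tested. Equal replicate numbers were not shown to pair the samples: correlations of deviations ran from −0.011 to 0.154, and 2 to 5 of 6 samples per comparison correlated best with their own number. With a replicate block 10 members stayed called in EO771, 3 in BEC tumour against BEC normal and 1 in each other comparison and the interaction, where H2-D1 also passed by adjusted p alone (0.0358), while calls over all genes were 0.918 to 0.997 times those without the block. Other scalings moved the median of all genes by at most 0.061 on the log2 scale in size.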
